A study of Mus musculus with 8 samples.

Results

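The genes described here mark macrophages and the complement protein C1q that these cells make. They were chosen by name, with earlier results of these data known, and number 10: Tyrobp, Fcer1g, Csf1r, C1qa, C1qb, C1qc, Ctss, Cd68, Mrc1 and Lyz2. Of these, 9 had a named row among the 24675 named genes, and Lyz2 was not analysed here. All 9 were among the 12416 genes tested, which are those above the median of their array on at least 4 of the 8 arrays. The tissues came from C57Bl/6 mouse embryos at embryonic day 12.5, with no allele or agent named in the labels. Dorsal samples hold the tissue from the aortic roof up to the notochord and ventral samples the tissue beneath the aorta, both cut by laser from frozen sections (20 µm) of the same embryos. There were 4 Affymetrix Gene 2.0 ST arrays per tissue, numbered as biological replicates 1 to 4, after amplification of 200 to 1000 pg of RNA. Such a piece of tissue holds many cell types, and the labels do not say how many embryos a replicate holds.

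Macrophages settle in embryonic tissues early, many of them from the yolk sac, and clear dying cells. Their survival depends on the receptor kinase Csf1r, and the transcription factor PU.1 (Spi1) drives many of their genes. Tyrobp (DAP12) and Fcer1g (the Fc receptor gamma chain) are small membrane adaptors that pass signals from activating receptors to the kinase Syk through a tyrosine motif. C1q, built from the chains C1qa, C1qb and C1qc, starts the classical complement pathway with the proteases C1r and C1s, and also tags debris for uptake. Unlike most complement proteins, which the liver makes, C1q comes mainly from macrophages and related myeloid cells.

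Values are log2 RMA intensities, so a difference of 1 is a doubling on this scale, and the arrays' medians lay between 3.59 and 3.65. A value near or under the median is close to background, where a difference is understated. The median is taken over all rows, so many genes of any kind lie under it. Of all named genes, 50.3% were above it on at least 4 of 8 arrays. The share of all genes under it on all 8 arrays was not counted. Levels of different genes are not compared, since each gene has its own probes. Over the tested genes, which are no independent replicates, the correlation of 2 arrays was 0.907 to 0.957 in dorsal tissue, 0.907 to 0.948 in ventral tissue and 0.907 to 0.936 across the tissues. The tissue labels were checked with 4 dorsal and 5 ventral marker genes chosen with earlier results of these data known. Of the 4 dorsal markers, 3 lay lower on all ventral than on all dorsal arrays (2.38% of tested genes did). Of the 5 ventral markers, 3 lay higher on all ventral than on all dorsal arrays (2.01% did). Examples are Pax1 of the sclerotome (dorsal mean 5.91, ventral mean 3.63) and Gata6 of visceral mesenchyme (5.31 and 6.89). Liver genes were high on both arrays of replicate number 4 and red cell genes on its dorsal array. Their values are given below, and their part in the results was not tested. Differences are ventral minus dorsal from limma with the replicate number as a block.

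As a group, the 9 genes stood higher in ventral tissue, but none passed the test over all genes. They were chosen with earlier results of these data known, so the shares set beside them are descriptions, not a test of the group. All 9 had a higher mean in ventral tissue, where 49.2% of all tested genes did, and their median difference was 0.68 against 0.00 over all tested genes. At an adjusted p under 0.05, 0 of the 9 were called, as were 0 of 12416 genes (0.0%). At an unadjusted p under 0.05, 4 of the 9 were higher in ventral tissue (Tyrobp, C1qb, Ctss and Mrc1), where 4.08% of tested genes were (8.26% in either direction). In 3 of the 9 (Tyrobp, C1qb and Ctss) every ventral array lay above every dorsal array, where 2.01% of tested genes did. These 3 were then of necessity higher in each of the 4 replicate numbers, where 7.93% of tested genes were, so that is no separate result. With no replicate block, 0 of the 9 were called (0.0322% of all genes were) and the same count of 4 had an unadjusted p under 0.05, where 3.97% were higher. In bulk tissue, more cells of a type and more RNA per cell cannot be told apart.

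**Figure D1:**
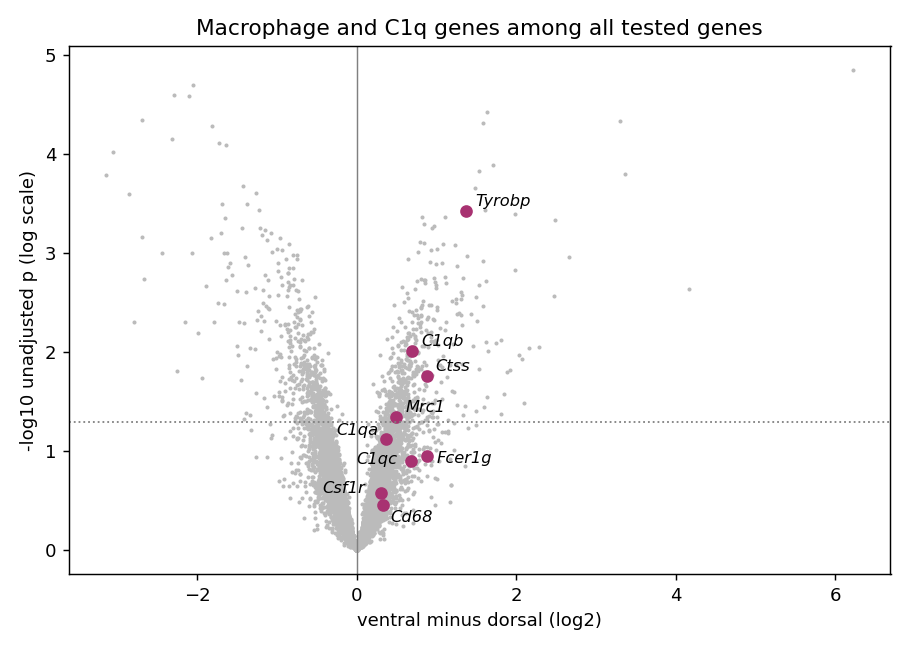
Each grey point is 1 of 12416 tested genes, with the ventral minus dorsal difference (log2) on the x axis and -log10 of the unadjusted p on the y axis; the dotted line marks the unadjusted threshold of 0.05 and the 9 macrophage and C1q genes are drawn in purple. All 9 lie right of 0, 4 of them above the dotted line, with Tyrobp highest at a difference of 1.38.

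The adaptor Tyrobp differed most. Its dorsal values were 5.08, 5.46, 4.58 and 5.38 in replicates 1 to 4, and its ventral values 6.95, 6.61, 6.19 and 6.26. Every ventral array lay above every dorsal array, and the lowest value of all was in dorsal replicate 3. The means were 5.12 ± 0.40 and 6.50 ± 0.35 (SD, n = 4), a 2.60-fold difference. The fitted difference was 1.38 (SE 0.22, 95% interval 0.86 to 1.89), with an unadjusted p = 0.000377 that ranked 26 of 12416 and an adjusted p = 0.18. It was higher in 4 of 4 replicate numbers.

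Fcer1g, the sister adaptor of Fc receptors, showed the same order in 3 replicate numbers and the opposite in number 4. Its dorsal values were 4.02, 4.05, 3.82 and 5.90, and its ventral values 5.74, 5.97, 4.83 and 4.78. Dorsal replicate 4 thus lay among the highest ventral arrays, and the groups overlapped. Dorsal arrays averaged 4.45 ± 0.98 and ventral arrays 5.33 ± 0.62 (SD, n = 4). The difference was 0.88 (SE 0.48, 95% interval -0.26 to 2.03; unadjusted p = 0.111, adjusted p = 0.718). Without replicate number 4 it was 1.55 (SE 0.25, adjusted p = 0.259), and without number 2 it was 0.54 (SE 0.54, adjusted p = 0.922).

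**Figure D2:**
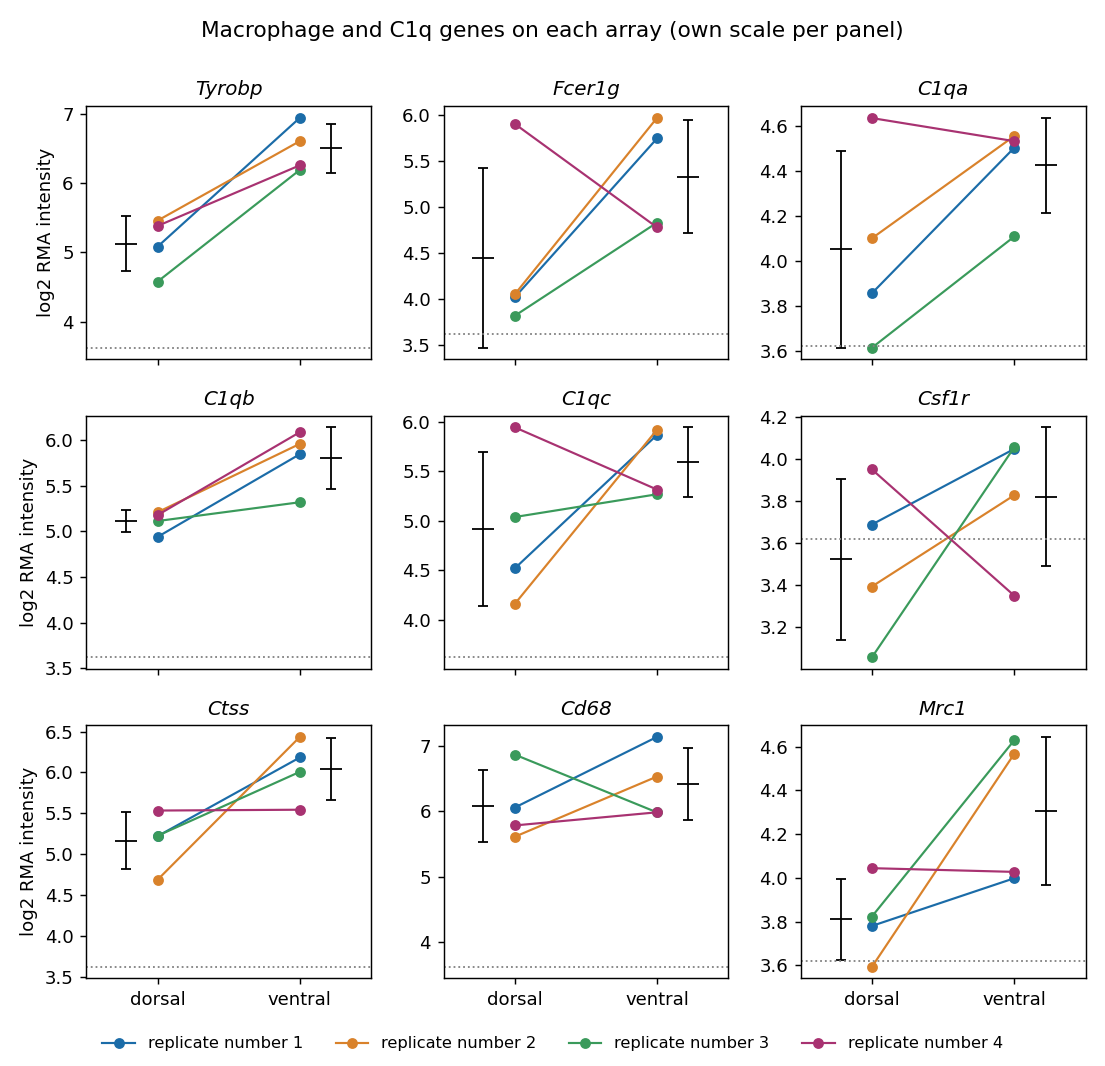
Log2 RMA intensity of each of the 9 genes on the 4 dorsal and 4 ventral arrays; a coloured line joins the dorsal and ventral array of each replicate number, black bars give the mean and SD of each tissue, and the dotted line is the mean of the array medians. Lines rise from dorsal to ventral for Tyrobp and C1qb in every replicate number, while in number 4 (purple) the lines of Fcer1g, C1qc, Csf1r, C1qa and, by 0.02, Mrc1 run down.

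The C1q genes are neighbours on chromosome 4, in the order C1qb, C1qc, C1qa in RefSeq. C1qb stood at 4.94, 5.21, 5.11 and 5.18 in dorsal replicates 1 to 4 and at 5.84, 5.96, 5.32 and 6.09 in ventral ones. The dorsal arrays were close together and all lay below the lowest ventral array, ventral replicate 3. The difference was 0.69 (SE 0.20, 95% interval 0.23 to 1.16; unadjusted p = 0.00976, adjusted p = 0.396), a 1.62-fold difference, and it was above 0 in 4 of 4 replicate numbers.

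C1qc was more scattered in dorsal tissue, at 4.52, 4.16, 5.04 and 5.94, than in ventral tissue, at 5.87, 5.92, 5.27 and 5.31. Its highest value of all 8 was in dorsal replicate 4, so the groups overlapped. The difference was 0.68 (SE 0.39, 95% interval -0.24 to 1.59; unadjusted p = 0.124, adjusted p = 0.733), and it was 1.11 (SE 0.33) without replicate number 4, 0.45 without number 1 and 0.32 (SE 0.39) without number 2. C1qa lay nearer the array medians, at 3.86, 4.10, 3.61 and 4.64 in dorsal and 4.50, 4.56, 4.11 and 4.53 in ventral tissue. Its top value was again dorsal replicate 4, and its lowest ventral value was replicate 3, as for C1qb. The difference was 0.37 (SE 0.18, 95% interval -0.05 to 0.80; unadjusted p = 0.0745, adjusted p = 0.654). All 3 chains were higher in ventral tissue in replicate numbers 1 to 3, and in number 4 C1qb alone was higher, by 0.91, while C1qc differed by -0.63 and C1qa by -0.10. Epha8, the protein-coding gene next to C1qa, named here for its place, differed by 0.04 (SE 0.19, adjusted p = 0.982) from a dorsal mean of 3.66 near the array medians.

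RefSeq sequences (GRCm38.p6) upstream of the start site were at hand for 6 of the 9 genes and were searched for GAGGAA, the letters of a core PU.1 site, on both strands (TTCCTC on the other). It occurs in the 250 bases upstream of 5 of the 6 (C1qb, C1qc, Ctss, Cd68 and Mrc1, not Fcer1g), and in 23.1% of the windows of 27025 genes and 22.1% of those of 9517 tested genes. A match is a description of letters, not of binding. The windows of the neighbouring C1qb and C1qc, of Ctss and of Mrc1, which has 3 matches, are shown 5′ to 3′ on the gene's strand with the match in capitals.
C1qb (chr4:136886201-136886450, minus strand): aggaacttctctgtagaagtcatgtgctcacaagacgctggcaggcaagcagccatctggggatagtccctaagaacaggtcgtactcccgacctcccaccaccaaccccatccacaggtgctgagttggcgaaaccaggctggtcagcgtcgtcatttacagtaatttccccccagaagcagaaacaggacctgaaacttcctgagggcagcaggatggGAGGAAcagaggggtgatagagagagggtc
C1qc (chr4:136892915-136893164, minus strand): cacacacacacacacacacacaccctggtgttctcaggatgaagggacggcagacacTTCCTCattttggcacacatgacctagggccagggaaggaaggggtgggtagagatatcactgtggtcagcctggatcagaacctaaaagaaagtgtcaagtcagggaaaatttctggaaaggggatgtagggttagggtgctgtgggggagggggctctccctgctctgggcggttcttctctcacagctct
Ctss (chr3:95526536-95526785, plus strand): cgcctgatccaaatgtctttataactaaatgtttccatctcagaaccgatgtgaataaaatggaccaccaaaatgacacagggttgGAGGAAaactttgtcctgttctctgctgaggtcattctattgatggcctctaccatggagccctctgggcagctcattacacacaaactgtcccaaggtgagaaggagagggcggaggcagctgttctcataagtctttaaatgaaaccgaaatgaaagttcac
Mrc1 (chr2:14229164-14229413, plus strand): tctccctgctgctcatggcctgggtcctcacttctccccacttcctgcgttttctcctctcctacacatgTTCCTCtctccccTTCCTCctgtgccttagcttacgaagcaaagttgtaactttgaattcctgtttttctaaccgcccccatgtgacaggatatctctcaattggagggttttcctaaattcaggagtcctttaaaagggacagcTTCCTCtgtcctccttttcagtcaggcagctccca
Counted from the start site, the match begins at -30 in C1qb, -193 in C1qc and -164 in Ctss, and at -180, -167 and -35 in Mrc1, so the neighbours C1qb and C1qc hold it at different places. The window of Cd68 has it at -225, together with TGANTCA, the letters of an AP-1 site, at -149 and -24. TGANTCA occurs in 6.87% of all windows and in no other of the 6. TTGCNNAA, letters of a C/EBP site, occurs in 9.55% of all windows and of the 6 only in Cd68, and CACGTG, an E-box, in 6.05% and in none of the 6.

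The lysosomal genes were split. Ctss, the cysteine protease cathepsin S of antigen-presenting cells, stood at 5.22, 4.69, 5.22 and 5.53 in dorsal and at 6.18, 6.44, 6.01 and 5.54 in ventral tissue. The groups did not overlap, but only just, since dorsal and ventral replicate 4 differed by 0.01. The difference was 0.88 (SE 0.28, 95% interval 0.21 to 1.55; unadjusted p = 0.0174, adjusted p = 0.462), 1.84-fold. Cd68, a heavily glycosylated protein of macrophage lysosomes, stood at 6.06, 5.61, 6.87 and 5.78 in dorsal and at 7.14, 6.53, 5.98 and 5.98 in ventral tissue. Here dorsal replicate 3 was second only to ventral replicate 1, and number 3, not number 4, ran the other way (-0.88). The difference was 0.33 (SE 0.33, 95% interval -0.45 to 1.11; unadjusted p = 0.353, adjusted p = 0.855), and it was 0.08 without replicate number 1 and 0.73 without number 3.

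The membrane receptors lay closest to the array medians. Csf1r, the receptor of CSF1 and IL-34, stood at 3.69, 3.39, 3.05 and 3.95 in dorsal and at 4.05, 3.83, 4.06 and 3.35 in ventral tissue. It was above the median on 2 of 4 dorsal and 3 of 4 ventral arrays, and in number 4 its order was turned (-0.60). The difference was 0.30 (SE 0.25, 95% interval -0.28 to 0.88; unadjusted p = 0.263, adjusted p = 0.812), or 0.60 without number 4 and 0.06 without number 3. Mrc1, the mannose receptor, which endothelium of some vessels also makes, stood at 3.78, 3.59, 3.82 and 4.04 in dorsal and at 4.00, 4.57, 4.63 and 4.03 in ventral tissue. Ventral replicates 2 and 3 stood apart above the rest, and the other 2 ventral arrays were level with dorsal replicate 4. The difference was 0.50 (SE 0.20, 95% interval 0.01 to 0.98; unadjusted p = 0.045, adjusted p = 0.594).

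Replicate number 4 differed from the others for these genes. Of the 9 genes, 9 were higher in ventral tissue in number 1, 9 in number 2, 8 in number 3 and 4 in number 4, where 48.5%, 47.5%, 49.7% and 52.3% of all tested genes were. The median difference over the 9 was 0.96, 0.97, 0.78 and -0.02 in numbers 1 to 4. Their mean level was 4.57, 4.47 and 4.57 in dorsal replicates 1 to 3 and 5.15 in dorsal replicate 4, and 5.59, 5.60, 5.16 and 5.10 in ventral replicates 1 to 4. Dorsal replicate 4 had the highest dorsal value in 6 of the 9 genes. Without number 4, 8 of the 9 (all but Cd68) had an unadjusted p under 0.05, where 4.04% of tested genes did in that direction, and 0 were called. Without dorsal replicate 4 alone and with no block there were 7 (background 4.29%), and without replicate number 2 there were 2, Tyrobp and C1qb (3.58%). Number 4 is singled out here by the values of these same genes, so the higher counts without it are descriptions and no separate support.

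**Figure D3:**
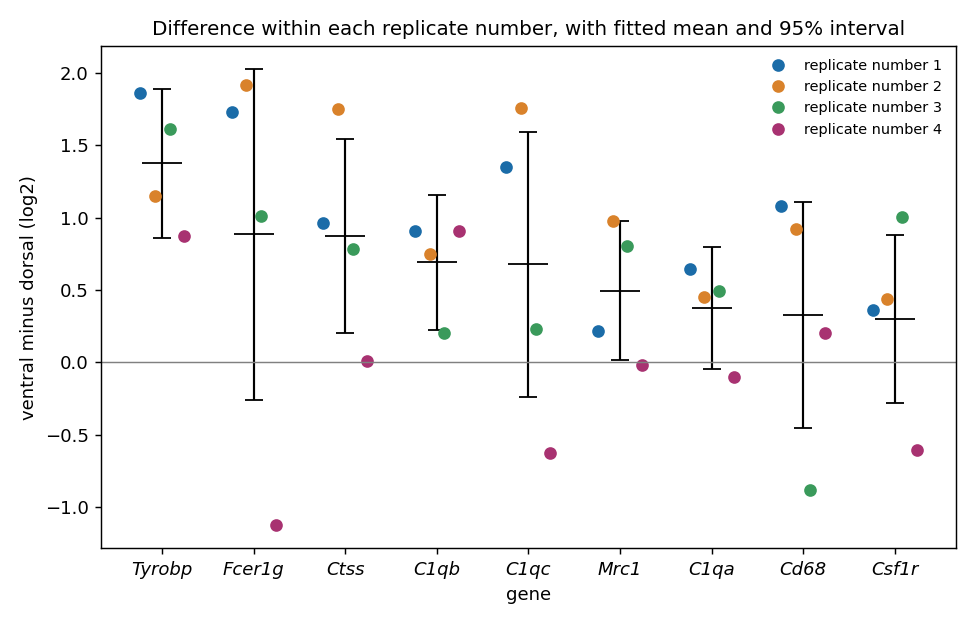
Ventral minus dorsal difference (log2) of the 9 genes, ordered by their fitted mean; coloured points are the 4 replicate numbers, and black bars give the fitted mean with its 95% interval. Number 4 (purple) is the lowest point in 7 of the 9 genes, and the interval stays above 0 for Tyrobp, Ctss, C1qb and Mrc1.

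Genes of other cell types also stood apart on dorsal replicate 4. The 2 tested liver genes had a mean of 3.95 to 4.18 in dorsal replicates 1 to 3 and 8.24 in dorsal replicate 4, and of 3.84 to 4.21 in ventral replicates 1 to 3 and 5.79 in ventral replicate 4. Apoa2, an apolipoprotein of liver, reached 10.1 and 7.31 in the dorsal and ventral replicate 4. The 10 tested red cell genes had a mean of 6.73, 6.93 and 7.0 in dorsal replicates 3, 2 and 1, 8.56 in dorsal replicate 4 and 6.78 to 7.59 in ventral tissue, and the 14 endothelial genes were lowest in dorsal replicate 4 (4.46, against 5.10 to 5.42 in the other dorsal arrays). Dorsal replicate 4 was also the highest dorsal array for the monocyte and neutrophil list (mean 5.06, others 3.93 to 4.27). So it was for megakaryocyte and platelet genes (5.43, others 4.32 to 4.57). The same held for leukocyte genes (4.93, others 4.15 to 4.61) and other complement genes (5.56, others 4.94 to 5.03). It was the lowest for genes around the CSF1 receptor (5.11), T and NK cell genes (3.83) and Ebf1 of the B cell list (5.23). The part of all these lists in the macrophage and C1q values was not tested. On ventral replicate 1, the 5 tested megakaryocyte and platelet genes had a mean of 6.41 (4.47 to 5.04 in the other ventral arrays), with the platelet receptor chain Gp9 at 7.76 (4.55 to 4.92). The part of that too was not tested. Without ventral replicate 1 and with no block, Tyrobp differed by 1.23 and C1qb by 0.68.

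**Figure D4:**
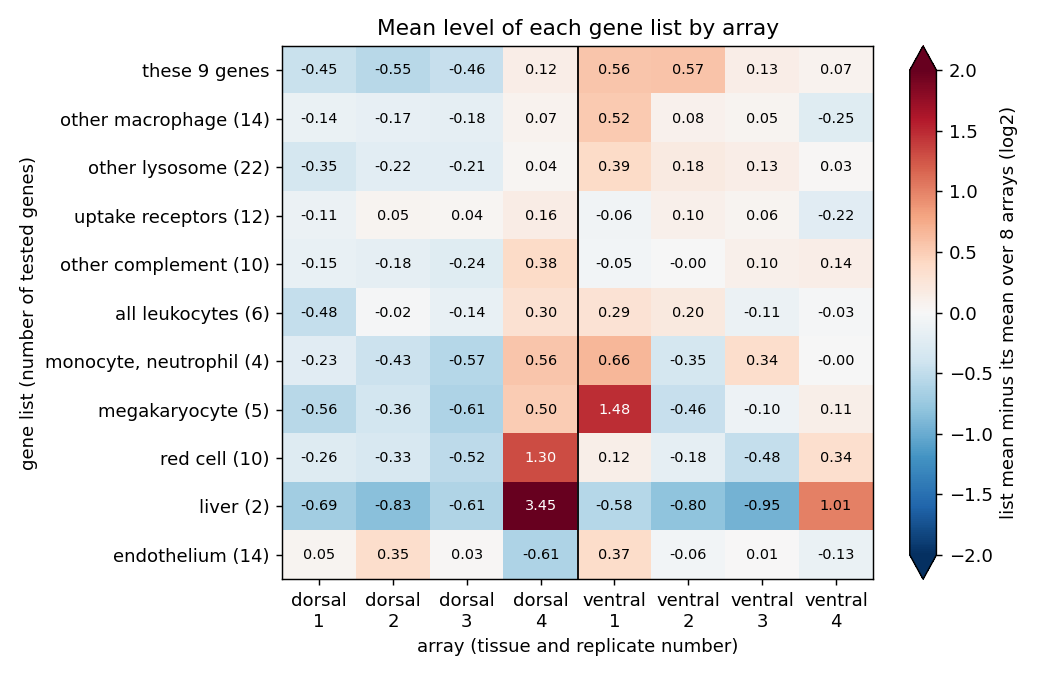
Mean level of each gene list on each array, as the difference from that list's mean over the 8 arrays (log2); the number of tested genes is in brackets, red is above and blue below the mean, and colours saturate at 2. The 9 macrophage and C1q genes stand below their mean in dorsal replicates 1 to 3 and above it elsewhere, while dorsal replicate 4 stands out for liver (3.45) and red cell genes and ventral replicate 1 for megakaryocyte genes (1.48).

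Other macrophage genes were mostly higher in ventral tissue, by small differences. Of 30 listed, 29 had a named row and 14 were tested, of which 11 were higher and 3 lower in ventral tissue, with a median difference of 0.24 (0.00 over all tested genes). None was called, and at an unadjusted p under 0.05 only Dab2, an endocytic adaptor also made by many other cells, differed (-0.69, SE 0.14, adjusted p = 0.241). Without replicate number 4 the median was 0.37 and 5 of the 14 were higher at an unadjusted p under 0.05, where 4.04% of tested genes were. Adgre1, a surface receptor that marks mouse macrophages, stood at 3.53, 3.81, 3.32 and 3.95 in dorsal and at 5.59, 4.28, 4.01 and 3.68 in ventral tissue, so ventral replicate 1 was high and ventral replicate 4 within the dorsal range. Its difference was 0.74 (SE 0.34, adjusted p = 0.639), and that of Aif1, an actin-binding protein of macrophages, 0.58 (SE 0.25, adjusted p = 0.605), with its top value of 5.15 also in ventral replicate 1. Without replicate number 1 these differences were 0.30 for Adgre1 and 0.35 for Aif1. Pf4, counted here and in the megakaryocyte and platelet list, and P2ry12 also had their top values on ventral replicate 1 (7.14 and 6.46). Both are among the 11 higher genes and were named after their values were seen. Cx3cr1, the fractalkine receptor, differed by 0.23 (SE 0.23) and Lyve1, a hyaluronan receptor of lymphatic vessels and some macrophages, by -0.11 (SE 0.31). On all 8 arrays 11 of the 29 lay under the array median (a share not counted over all genes): Cd163, Itgam, Cd14, Timd4, Folr2, Mpeg1, Vsig4, Clec4n, Msr1, Cybb and Clec4a2. So did Ptprc (CD45), the surface marker of all leukocytes, at 2.84 to 3.36.

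Many receptors and signalling proteins that work with Tyrobp and Fcer1g lay under the array medians, as do many genes of any kind. The share of all genes under the median on all 8 arrays was not counted. Of 33 listed, 30 had a named row, 19 of these lay under the median on all 8 arrays (Syk, Btk and Plcg2 among them) and 6 were tested, 5 higher and 1 lower with a median difference of 0.09. At an unadjusted p under 0.05 there were 0, and 0 were called by limma. Trem2, a lipid-sensing receptor that signals through Tyrobp, stood at 3.87, 3.54, 3.59 and 3.87 in dorsal and at 4.16, 4.53, 3.92 and 3.80 in ventral tissue, a difference of 0.39 (SE 0.19, adjusted p = 0.671). Only ventral replicate 4 fell within its dorsal range, and without number 2 the difference was 0.18. The adaptor Lcp2 (SLP-76) differed by 0.52 (SE 0.24, adjusted p = 0.632), or 0.30 without number 4, and Hcst (DAP10), an adaptor without the tyrosine motif of DAP12, by 0.14 (SE 0.19), or 0.02 without number 4.

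Genes around the CSF1 receptor were split between the tissues, and neither ligand showed a clear order. Of 18 genes of that axis, 17 had a named row and 13 were tested, 7 higher and 6 lower, with a median difference of 0.10 (0.15 without number 4) and 0 called. Spi1 stood at 3.88, 3.49, 3.70 and 3.56 in dorsal and at 3.98, 4.02, 4.35 and 3.91 in ventral tissue. Its groups did not overlap, where 2.01% of tested genes had every ventral array above every dorsal array. The difference was small (0.41, SE 0.15, unadjusted p = 0.0283, adjusted p = 0.527). The ETS factor Fli1, which endothelium also makes, differed by -0.74 (SE 0.19, unadjusted p = 0.00633, adjusted p = 0.34). The ligand Csf1 differed by 0.48 (SE 0.38), or by -0.05 without replicate number 2, where ventral replicate 2 held its top value of 5.11, and the ligand Il34 by -0.02 (SE 0.15), a sign that changed between settings. Runx1, a factor of blood formation, differed by 0.69 (SE 0.37), or by 0.33 without number 3 and 1.17 without number 1.

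The rest of the complement system was split between the tissues. Of 40 other complement genes, 37 had a named row and 21 lay under the median on all 8 arrays, a share not counted over all genes. Of the 10 tested, 6 were higher and 4 lower, with a median difference of 0.10. At an unadjusted p under 0.05 there were 0, and 0 were called by limma. C1ra, the protease that C1q activates, was above the array medians on all 8 arrays and differed by -0.13 (SE 0.23, 95% interval -0.68 to 0.41), or by 0.06 without replicate number 4. Its partner C1s1 lay at 1.55 to 1.96, under every median. Serping1, the inhibitor of both proteases, differed by 0.58 (SE 0.36, adjusted p = 0.75), by 0.14 without number 3 and 0.95 without number 1, and Cr1l, a membrane regulator of complement, by 0.45 (SE 0.19, adjusted p = 0.602). Factor B (Cfb), which the liver makes, was at 5.09 in dorsal replicate 4 and 3.36 to 3.81 elsewhere.

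Genes of the lysosome beyond Ctss and Cd68 stood higher in ventral tissue more often than not. Most cells carry lysosomes, but the list also holds genes of blood cells, such as Laptm5, which is also counted among the leukocyte genes. Of 26 listed, 25 had a named row and 22 were tested, 19 higher and 3 lower (49.2% of all tested genes were higher), with a median difference of 0.30 (0.00 over all tested genes). None was called, and 5 had an unadjusted p under 0.05 (8 without number 4), all of them higher, where 4.08% of tested genes were (4.04% without number 4). With all replicates the 5 were Cst3, Hexa, Lipa, Gusb and Ctsz (Gusb and Ctsz were chosen after their values were seen). Cst3, cystatin C, the secreted inhibitor of cathepsins such as cathepsin S, stood at 8.01, 8.49, 8.79 and 8.98 in dorsal and at 9.51, 9.75, 9.61 and 9.44 in ventral tissue. Its groups did not overlap, and the difference was 1.01 (SE 0.19, unadjusted p = 0.000893, adjusted p = 0.211). Hexa, a subunit of beta-hexosaminidase, differed by 1.04 (SE 0.27, adjusted p = 0.329) and lysosomal acid lipase (Lipa) by 0.74 (SE 0.20, adjusted p = 0.357). In both the groups did not overlap. Across all tested genes, 2.01% had every ventral array above every dorsal array. Cst3, Hexa and Lipa were named for the smallest p of their list.

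Receptors for uptake of debris and dying cells were split between the tissues. Of 24 listed, 10 lay under the median on all 8 arrays, a share not counted over all genes. Of the 12 tested, 4 were higher and 8 lower, with a median difference of -0.10 that turned to 0.04 without replicate number 4. At an unadjusted p under 0.05 there were 0, and 0 were called by limma. The receptor kinase Mertk, through which macrophages clear dying cells, differed by -0.52 (SE 0.25, adjusted p = 0.651), its bridging ligand Gas6 by 0.47 (SE 0.24, adjusted p = 0.676), and the collectin receptor Colec12 by -0.51 (SE 0.25, adjusted p = 0.662). Mertk differed by -0.27 without number 3, Colec12 by -0.24 without number 4, and Gas6 by 0.31 without number 2.

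Many markers of granulocytes, mast cells and lymphocytes lay under the array medians, as do many genes of any kind. Of all named genes, 50.3% were above their array's median on at least 4 of 8 arrays. Under the median on all 8 arrays lay 9 of 16 monocyte and neutrophil genes, 7 of 11 mast cell and basophil genes, 9 of 13 T and NK cell genes and 3 of 6 B cell genes, counted over those with a named row. Of 14 genes of all leukocytes, 4 lay under it and 6 were tested, 3 higher and 3 lower in ventral tissue, with a median difference of 0.02. Laptm5, a lysosomal protein of blood cells, differed by 0.76 (SE 0.47, adjusted p = 0.747; 0.15 without number 1) and Cd52 by 0.65 (SE 0.31, adjusted p = 0.649; 0.38 without number 1). Lcp1, the actin-bundling protein L-plastin, differed by -0.27 (SE 0.14), Rac2, a GTPase of blood cells, by -0.13 (SE 0.17) and its regulator Arhgdib by -0.05 (SE 0.21) (the latter pair named after their values were seen). The mean of the 4 tested monocyte and neutrophil genes ranged from 3.93 to 5.06 in dorsal and from 4.15 to 5.16 in ventral tissue. In that list Plac8 differed by 1.33 (SE 0.29, adjusted p = 0.266), from a dorsal mean of 3.31. The row named Trac, the constant part of the T cell receptor alpha chain, differed by 6.23 (SE 0.58, adjusted p = 0.0717), from a dorsal mean of 2.96 to a ventral mean of 9.19, while the CD3 chains Cd3e, Cd3d and Cd3g of the same receptor lay under the median on all 8 arrays. Ebf1, in the B cell list but also made by mesenchyme, differed by -1.89 (SE 0.40, adjusted p = 0.246), and Cd79a, Cd79b and Ms4a1 lay under the median on all 8. Plac8 and Trac were above the array medians on the 4 ventral arrays only, so they entered the test through the tissue in which they are high. The part of these genes in the macrophage and C1q values was not tested.

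Other genes were ranked by how like the mean of C1qa, C1qb and C1qc their pattern over the 8 arrays was. The macrophage and C1q genes listed at the outset were left out of the ranking, as were predicted genes, small RNAs and pseudogenes. Among the rest, none of the top 12 was in the list of other macrophage genes used here. Ranked by Pearson's r over 8 arrays, as a description, the top 12 named genes were Lage3 (0.95), Aamp (0.95), Uqcrfs1 (0.94), Prdx4 (0.94), Dcn (0.94), Glb1 (0.93), Apoe (0.92), Chchd1 (0.92), Sugt1 (0.92), Tspo (0.91), Jcad (0.91) and Hscb (0.90). With 8 arrays, 14 of 12407 other genes (0.113%) exceeded 0.9, and the middle of the ranking lay at -0.03. Apoe, a lipid carrier that macrophages and liver make, differed by 0.68 (SE 0.28, adjusted p = 0.593) or 0.45 without number 1, and was lower in ventral tissue in number 4 (-0.26). Dcn, the proteoglycan decorin of connective tissue, differed by 1.64 (SE 0.60, adjusted p = 0.527) and by -0.91 in number 4 (2.49 without number 4), and Glb1, lysosomal beta-galactosidase, by 0.71 (SE 0.20, adjusted p = 0.378).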

How the data were processed

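The deposited log2 values are RMA values that the authors made in Affymetrix Expression Console, per the submitters' processing notes; versions are not given in the sources used here. RMA equalises the arrays, so a difference is relative to other genes. Of 25429 rows, 24675 were named through the platform table and RefSeq (GRCm38.p6), and 754 were not used. The 12416 genes above their array's median on at least 4 of 8 arrays were fitted in limma 3.58.1 (R 4.3.3; lmFit, then eBayes, trended and robust). The replicate number entered as a fixed block (3 residual degrees of freedom), since dorsal and ventral tissue share embryos per the labels, which do not say that a number marks 1 embryo. Same-numbered arrays' deviations from the tissue means had r = 0.02 to 0.12, different numbers -0.13 to 0.10, so p-values may measure only the spread between these samples. Tests were two-sided, with Benjamini-Hochberg adjustment over all tested genes. The fit was tested on simulated data. The number of arrays limits the precision.

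The members and lists were chosen with earlier results of these data known. Named are the members, up to 3 genes of smallest p per list, 13 set genes and the 12 most like C1q, where reported here. Alternatives changed the block, filter, weights, moderation and scaling, or left out replicates.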

Additional observations from a re-analysis of the deposited data

Results flagged for a closer look

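In a group of 4 arrays, a value was singled out when its gap to the nearest other exceeded, as a share of the group's range, Dixon's 95% critical value, which chance gives in about 5% of groups. Of 150 groups checked (75 genes in 2 tissues), 11 were singled out, 7 of them on dorsal replicate 4. Among the macrophage and C1q genes these were Fcer1g in dorsal replicate 4 (5.90, others 3.82 to 4.05) and C1qa in ventral replicate 3 (4.11, others 4.50 to 4.56). On dorsal replicate 4, the others were Apoa2 (10.1, others 4.14 to 4.54), Apoa1 (6.38, others 3.77 to 3.95), Cfb (5.09, others 3.56 to 3.81), Glb1 (5.52, others 4.77 to 4.82), Il34 (3.97, others 3.61 to 3.64) and, as the only low one, Cx3cr1 (5.38, others 6.40 to 6.59). On ventral replicate 1 they were Gp9 (7.76, others 4.55 to 4.92) and, low, Cr1l (6.64, others 7.24 to 7.30), and on ventral replicate 2 Sox17, an endothelial factor (4.90, others 4.49 to 4.54).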

How the results depend on the processing

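The 9 macrophage and C1q genes kept their direction in the alternatives that held them. These were 20 for Tyrobp, C1qb, C1qc, Ctss and Cd68, and 19 for Fcer1g, Csf1r, C1qa and Mrc1, which the stricter filter removed. In this balanced design, changes of block, filter or moderation leave the mean difference as it is, so no direction could turn there. Only rescaling, array weights and leaving out replicates or arrays could turn it. None of the 9 was called in any of the 20, where the lowest adjusted p of Tyrobp was 0.101 and the highest 0.652. Their median difference of 0.68 ranged from 0.35 to 0.83 with replicates or arrays left out, and the number with an unadjusted p under 0.05, 4, ranged from 2 (without number 2) to 8 (without number 4). Over all genes, limma called 0 with the replicate block, 4 with no replicate block, 4 with the number as a random block and 10 under the stricter filter. With replicates or arrays left out it called 0 to 20: 9 without number 1, and, with no block, 8 without dorsal replicate 1, 9 without dorsal replicate 4 and 20 without ventral replicate 1. Without dorsal replicate 4 the number of macrophage and C1q genes at an unadjusted p under 0.05 was 7. The block changed no call among the macrophage and C1q genes. Other scalings moved the median of all genes by under 0.01.

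Of 75 genes named and tested, 13 changed sign in some alternative, none of them a macrophage or C1q gene listed at the outset. Il34 was 0.012 with array weights. With each replicate number left out, the ranges of genes that changed sign were -0.99 to 0.21 for Apoa2, -0.29 to 0.056 for C1ra, -0.045 to 0.75 for Csf1, -0.028 to 0.35 for Cx3cr1, -0.33 to 0.079 for Gata2, -0.019 to 1.16 for Gp9, -0.13 to 0.058 for Il34, -0.36 to 0.27 for Lyve1, -0.022 to 1.72 for Ppbp, -0.22 to 0.059 for Prf1, -0.10 to 0.21 for Prss34 and -0.14 to 0.39 for S100a9. Without dorsal replicate 2, the turned value was 0.0101 for Gata2. Without dorsal replicate 3, the turned value was -0.041 for S100a9. Without dorsal replicate 4 and with no block, the turned values were 0.91 for Apoa2, 0.061 for C1ra, -0.042 for Cx3cr1, 0.044 for Gata2, 0.063 for Il34, 0.024 for Klf1 and 0.15 for Lyve1. Without ventral replicate 1 and with no block, the turned values were 0.057 for Il34, 0.012 for Lyve1 and -0.15 for S100a9. Without ventral replicate 2 and with no block, the turned values were 0.013 for Gata2 and -0.026 for Prss34. Without ventral replicate 4 and with no block, the turned values were 0.0005399 for Lyve1 and 0.018 for Prf1. The cause was not tested.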
